A study of Mus musculus with 6 samples.

Results

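The genes described here are 55 members of the Wnt pathway: 17 Wnt ligands, 10 Frizzled receptors, 3 co-receptors of the Lrp family, 3 R-spondins and the 3 Lgr receptors they bind, 3 proteins of the beta-catenin destruction complex, the 4 factors of the Tcf/Lef family, 10 secreted antagonists and 2 Naked cuticle homologues. They were chosen by name, by matching symbols in the deposited normalized table. Of the 55, 52 were in that table, which holds 20161 genes of the 48709 counted. The other 3, Wnt1, Wnt9b and Wnt16, were looked up in the raw counts. The tissue was the tooth germ of the first molar, taken from C57BL/6 mice at postnatal day 7, and the groups were wild type (WT, 3 libraries) and a Gpr115 knockout (Gpr115-KO, 3 libraries), made from littermates. The labels name no treatment, and they give neither the deleted stretch of Gpr115 nor whether germs were pooled for a library. P-values therefore measure the spread between these libraries, which may be technical. The study asked how the transcripts of the tooth germ differ without this adhesion G protein-coupled receptor.

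Wnt ligands are secreted lipid-modified proteins that bind Frizzled receptors together with Lrp5 or Lrp6. Binding stops a complex built on Axin and Apc from marking beta-catenin for destruction, and beta-catenin then enters the nucleus and acts through the DNA-binding factors Tcf7, Tcf7l1, Tcf7l2 and Lef1. R-spondins and their Lgr receptors raise the number of Frizzled receptors at the cell surface, while Dkk, Sfrp, Wif1, Sostdc1 and Notum act outside the cell against the signal. In teeth the pathway is known for its part in placing the tooth bud and shaping the crown, and inherited faults of WNT10A, LRP6 and AXIN2 cause missing teeth.

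The 6 libraries held 8317302 to 11122821 counts, so that 1 count was worth 0.0904 to 0.114 CPM (counts per 1000000 of the library size as scaled by TMM). A count of 0 in a library allowed up to 0.271 to 0.341 CPM, a limit that covers counting error alone. Gpr115 itself, listed as Adgrf4 (chromosome 17, 42656891 to 42692284, minus strand, GRCm38), read 66.9, 62.3 and 67.3 CPM in the WT libraries against 39.1, 20.6 and 27.4 CPM in the knockouts, 44.3% of the WT mean (adjusted p = 0.0889, edgeR quasi-likelihood test, Benjamini-Hochberg). All 4 secretory and all 5 maturation ameloblast markers and all 4 odontoblast markers had counts in every library, and the summed level of the secretory markers was 106581 to 139553 CPM among WT and 91181 to 201135 CPM among knockout libraries. Genes listed for other cell types were present as well. The summed bone list stood at 31414 to 70610 CPM among WT and 36447 to 59750 CPM among knockout libraries. Nearly all of each sum was Col1a1, at 30547 to 68800 CPM among WT and 35408 to 57925 CPM among knockout libraries. The 8 skeletal muscle genes summed to 30.8 to 48.7 CPM among WT and 19.4 to 197 CPM among knockout libraries. The 6 erythroid genes summed to 138 to 158 CPM among WT and 157 to 390 CPM among knockout libraries, and the 6 leukocyte genes to 63.7 to 76.0 CPM among WT and 75.9 to 90.2 CPM among knockout libraries. The maturation markers summed to 1911 to 8558 CPM among the knockouts and 6158 to 6187 CPM in WT, and most of each sum was Odam, at 1468 CPM in Gpr115-KO replicate 2. The other 4 maturation markers were lowest in Gpr115-KO replicate 3.

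The DNA that Tcf/Lef factors bind is known from their consensus word. RefSeq promoter windows (GRCm38.p6) of 250 bases before and 50 bases after a transcription start were found for 35 of the 55 genes, 43 windows in all. They were searched on both strands for CTTTGAT and CTTTGAA, which read ATCAAAG and TTCAAAG on the other strand. The word was found in 3 of the 43 windows (6.98%), against 2842 of all 32851 windows of that length (8.65%). The 250 bases before the start are printed for those 3 and for a window of Tcf7l2, the gene with the smallest adjusted p of the set, 5′ to 3′ on the strand of the gene, with the word in capitals.
Wnt5b, chr6:119449387-119449636, minus strand: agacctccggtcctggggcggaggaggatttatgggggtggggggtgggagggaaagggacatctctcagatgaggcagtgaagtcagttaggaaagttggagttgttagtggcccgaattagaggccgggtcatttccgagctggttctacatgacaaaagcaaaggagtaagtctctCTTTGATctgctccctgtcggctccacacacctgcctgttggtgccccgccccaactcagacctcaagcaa
Wnt11, chr7:98834862-98835111, plus strand: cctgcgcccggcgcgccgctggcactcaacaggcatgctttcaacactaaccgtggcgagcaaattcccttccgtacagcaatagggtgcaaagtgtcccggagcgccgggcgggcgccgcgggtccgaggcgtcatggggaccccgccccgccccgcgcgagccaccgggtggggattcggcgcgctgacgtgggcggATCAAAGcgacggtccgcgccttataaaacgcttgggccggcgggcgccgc
Dkk1, chr19:30549497-30549746, minus strand: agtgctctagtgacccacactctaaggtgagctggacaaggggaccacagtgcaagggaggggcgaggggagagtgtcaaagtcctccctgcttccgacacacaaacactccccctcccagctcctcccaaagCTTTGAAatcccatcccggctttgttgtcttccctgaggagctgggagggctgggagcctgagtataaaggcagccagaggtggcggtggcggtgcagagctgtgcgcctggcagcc
Tcf7l2, chr19:55741560-55741809, plus strand: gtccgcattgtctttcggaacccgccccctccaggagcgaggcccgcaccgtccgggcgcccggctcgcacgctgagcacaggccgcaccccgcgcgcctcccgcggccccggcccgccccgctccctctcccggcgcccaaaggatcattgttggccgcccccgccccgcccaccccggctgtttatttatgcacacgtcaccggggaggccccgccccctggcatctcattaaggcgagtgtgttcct
The word begins 71 bases before the start in Wnt5b, 51 bases before it in Wnt11 and 117 bases before it in Dkk1. Neither window of Tcf7l2 holds these letters. A match of letters is a description of the window and shows no binding.

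Of the 55 genes, 47 had enough counts to be tested. None of the 47 had an adjusted p under 0.05 by edgeR's quasi-likelihood test with Benjamini-Hochberg adjustment over all 16011 genes tested, of which 24 (0.15%) passed. At an unadjusted p under 0.05 there were 7 of the 47 (Wnt6, Wnt10a, Fzd8 and Sfrp5 higher and Lrp4, Tcf7l2 and Sfrp1 lower in Gpr115-KO), against 12.3% of all genes (4.85% higher and 7.48% lower). The DESeq2 Wald test, tried as an alternative, called 1 of the 47, Tcf7l2, and 249 of all genes (1.56%), and limma-voom called 0 of the 47. Groups that did not overlap between the 3 WT and the 3 Gpr115-KO libraries were found for 3 genes higher in Gpr115-KO (Wnt10a, Fzd8 and Sfrp5) and 2 genes lower (Lrp4 and Tcf7l2), against 8.55% and 8.99% of all genes. Among the untested genes Rspo3 was also lower without overlap. The median log2 fold change of the 47 was 0.10, against 0.01 for all genes, with 31 of the 47 above 0 (66.0%) against 51.3% of all genes. With a library left out the median ran from 0.05 (without Gpr115-KO replicate 1) to 0.24 (without WT replicate 2), and 26 to 31 of the 47 to 49 genes then tested were above 0. The number at an unadjusted p under 0.05 was 5 to 11, highest without Gpr115-KO replicate 3, where the share of all genes was 13.9%. The counts of separate groups are not above the shares of the whole table, and the set as such was not tested.

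**Figure D1:**
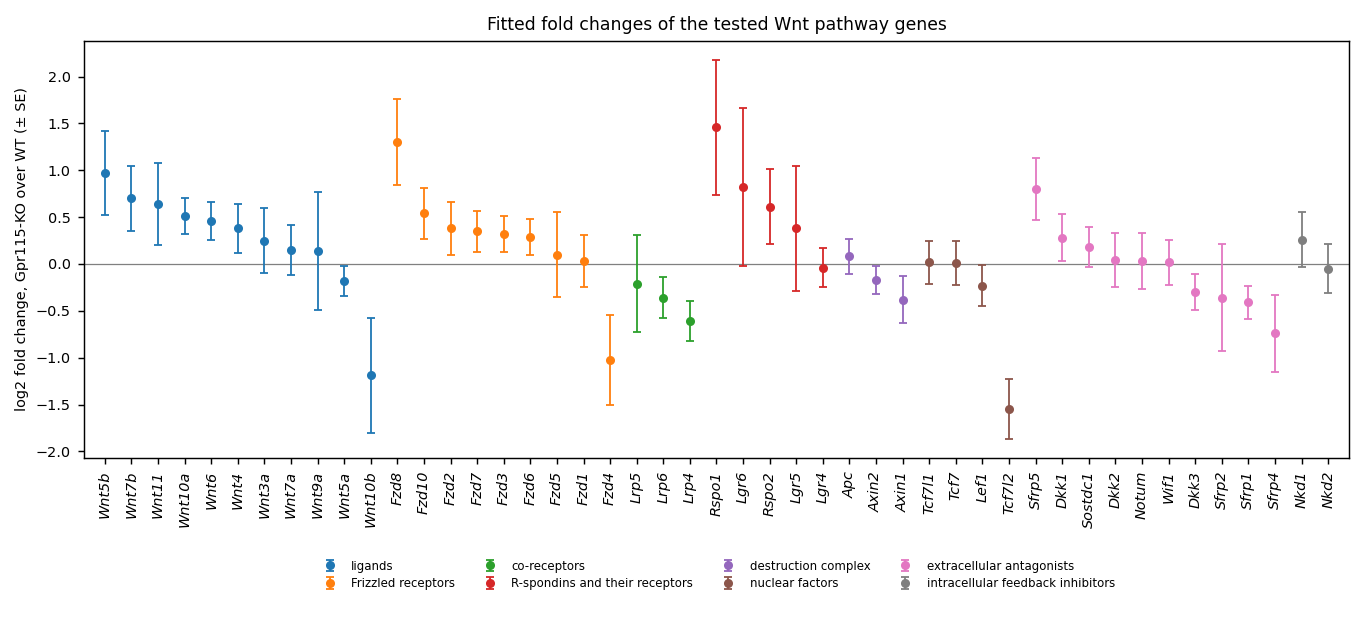
Log2 fold change of Gpr115-KO against WT for the 47 Wnt pathway genes tested, grouped by role, with bars of 1 standard error from edgeR's quasi-likelihood fit. Tcf7l2 is the lowest point at −1.55 and Rspo1 the highest at 1.46, and no gene has an adjusted p under 0.05.

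Tcf7l2 had the lowest fold change and the smallest adjusted p of the 47. It encodes a DNA-binding partner of beta-catenin that turns target genes on when beta-catenin is bound and off when it is not, and it lies on chromosome 19 (55741820 to 55933654, plus strand). Its level was 1666, 1303 and 945 CPM in the WT libraries against 671, 298 and 367 CPM in the knockouts. Every knockout library lay below every WT library, and both groups were wide, with a spread of 1.76-fold within WT and 2.25-fold within Gpr115-KO. The Gpr115-KO mean was 445 CPM ± 198 (SD, n = 3), 34.1% of the WT mean of 1305 CPM ± 360 (SD, n = 3). The log2 fold change was −1.55 (SE 0.32, adjusted p = 0.129, edgeR quasi-likelihood test, Benjamini-Hochberg). Because these are whole tooth germs, fewer cells of a type and less RNA per cell cannot be told apart.

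Whether Tcf7l2 passed depended on the setting. DESeq2's Wald test gave −1.55 (adjusted p = 9.5e-05), edgeR without a count filter gave −1.56 (adjusted p = 6.2e-07), and edgeR without Gpr115-KO replicate 1 gave −1.97 (adjusted p = 0.0226). Over all 15 alternatives the log2 fold change ran from −1.97 to −1.33 and the adjusted p from 6.2e-07 to 0.473, so the direction held in each and the call did not. Of all genes 1.71% passed without the count filter and 0.29% without Gpr115-KO replicate 1.

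A library's trend on gene length ranked with the level of Tcf7l2, apart from a tie. The maturation ameloblast markers did so only in part. Across protein-coding genes, the rank correlation between a library's deviation from the mean and the exonic length of the gene was 0.25, 0.22 and −0.01 in WT replicates 1 to 3 and −0.01, −0.25 and −0.11 in Gpr115-KO replicates 1 to 3. With each library's trend on length removed, Tcf7l2 stood at −1.44 (SE 0.29, adjusted p = 0.128, edgeR). All 5 maturation ameloblast markers were, like Tcf7l2 among the knockouts, highest in Gpr115-KO replicate 1. Their lowest library was replicate 2 for Odam alone, as for Tcf7l2, and replicate 3 for the other 4. In WT their sum spanned 6158 to 6187 CPM, while Tcf7l2 spanned 945 to 1666 CPM. The part of cell composition in the value of Tcf7l2 was not tested. The 8 tested genes that start within 1 Mb of Tcf7l2 had log2 fold changes from −0.83 (Gpam) to 0.89 (Plekhs1) and adjusted p-values from 0.338 to 0.968 (edgeR), with 1 lower and 2 higher without overlap between groups (8.99% and 8.55% of all genes).

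The other 3 factors of the family read far lower, with overlapping groups. Tcf7, known from T cells, read 11.5, 9.29 and 9.32 CPM in the WT libraries against 8.86, 8.74 and 12.8 CPM in the knockouts. Tcf7l1, which acts mainly as a repressor, read 21.8, 17.6 and 30.1 CPM in the WT libraries against 28.0, 23.6 and 19.2 CPM in the knockouts. Lef1, a factor needed for early tooth development, read 29.9, 25.6 and 20.7 CPM in the WT libraries against 18.4, 18.2 and 28.1 CPM in the knockouts. The groups overlapped for all 3 genes, with log2 fold changes of 0.01 (SE 0.23), 0.02 (SE 0.23) and −0.23 (SE 0.22).

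Per kilobase of exon, Tcf7l2 made up 93.4%, 93.1% and 88.8% of the summed Tcf/Lef level in the 3 WT libraries and 85.9%, 74.9% and 76.4% in the 3 Gpr115-KO libraries. Every knockout library had a smaller share than every WT library. The shares are parts of the same sum, so they restate the lower level of Tcf7l2 and are no separate result. By the longest annotated transcript Tcf7l2 took 92.9% to 95.7% in WT and 83.1% to 91.0% in Gpr115-KO. The share of Tcf7l1 was 2.73% to 6.32% in WT and 8.0% to 13.2% in Gpr115-KO, that of Tcf7 2.15% to 2.93% and 3.79% to 8.87%, and that of Lef1 1.68% to 1.94% and 2.35% to 5.83%. Tcf7l2 stayed the most abundant member of the family in all 6 libraries.

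**Figure D2:**
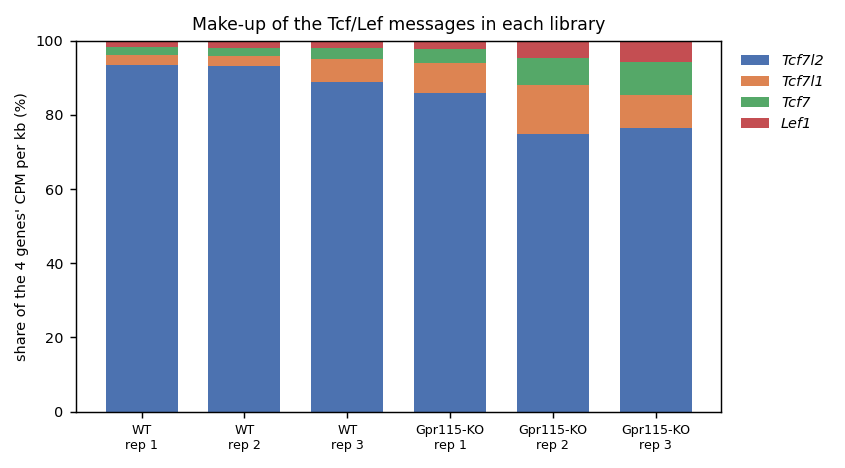
Share of each Tcf/Lef factor in the summed level per kilobase of exon of the 4 factors (percent, vertical axis), 1 stacked bar per library. Tcf7l2 takes 88.8% to 93.4% in WT and 74.9% to 85.9% in Gpr115-KO.

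Among the 47 tested members the WT levels ran from 0.123 CPM per kb for Lgr5 to 172 CPM per kb for Lgr4. Per kilobase of exon, Lgr4, an R-spondin receptor, was the highest of the tested members (SD 11.8 CPM per kb, n = 3), followed by Tcf7l2 at 149 ± 41.1 and by Wif1, which binds and holds Wnt ligands, at 134 ± 7.94 CPM per kb. The WT libraries of Lgr4 and Tcf7l2 overlapped, as did those of Tcf7l2 and Wif1. Lrp4 followed at 75.6 CPM per kb ± 12.0, and its WT libraries lay apart from those of Wif1 and from those of the next gene, Sostdc1, at 29.4 CPM per kb. Sfrp2 (26.9), Dkk3 (24.4), Sfrp1 (19.8) and Wnt5a (19.0 CPM per kb) came next, with a gap between the libraries of Dkk3 and Sfrp1 and between those of Wnt5a and Wnt6 (11.7 CPM per kb). From Wnt6 down each gene overlapped its neighbour in the order. The order at the top depends on the length used: by the longest annotated transcript Tcf7l2 read 351 and Lgr4 200 CPM per kb.

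**Figure D3:**
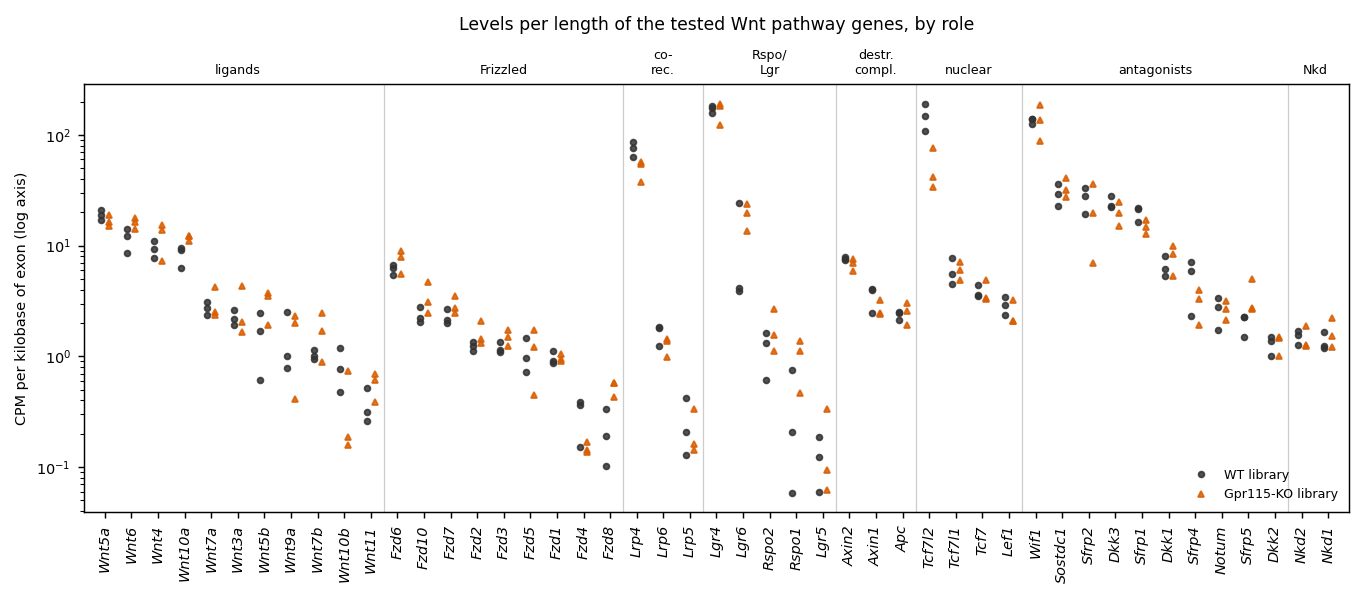
Level of the tested Wnt pathway genes in CPM per kilobase of exon on a log axis, by role, with a point for each WT and Gpr115-KO library. Lgr4, Tcf7l2, Wif1 and Lrp4 stand above the other genes, and the Gpr115-KO points of Tcf7l2 lie below its WT points.

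Among the ligands, 11 of 17 were tested, with 9 log2 fold changes above 0 and 2 below (median 0.38). Without Gpr115-KO replicate 2 the split was 6 above and 5 below (median 0.27). With a library left out the median ran from 0.26 (without WT replicate 3) to 0.5 (without Gpr115-KO replicate 3). Wnt5a, which mostly signals without beta-catenin, was the most abundant per kilobase. It read 163, 135 and 149 CPM in the WT libraries against 150, 127 and 117 CPM in the knockouts, with overlapping groups (log2 fold change −0.18, SE 0.16). Wnt6 and Wnt10a are neighbouring genes on chromosome 1 (74771892 to 74785322 and 74791516 to 74804179), and WNT10A is often altered in people with missing teeth. Wnt10a read 15.6, 22.7 and 23.3 CPM in the WT libraries against 27.4, 30.1 and 30 CPM in the knockouts. All 3 knockout libraries lay above all WT libraries, at 142% of the WT mean (log2 fold change 0.51, SE 0.19, adjusted p = 0.311, edgeR). Wnt6 read 19.0, 27.0 and 31.0 CPM in the WT libraries against 30.8, 39.0 and 35.7 CPM in the knockouts, so that the lowest knockout library fell just under the highest WT library (log2 fold change 0.46, SE 0.20, adjusted p = 0.389, edgeR). WT replicate 1 was the lowest of the 6 libraries for both genes.

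Wnt4, a ligand that can signal with or without beta-catenin, read 46.1, 39.1 and 32.5 CPM in the WT libraries against 64.2, 58.3 and 30.5 CPM in the knockouts. Knockout replicates 1 and 2 were the highest libraries and replicate 3 the lowest (log2 fold change 0.38, SE 0.26). Wnt5b, a close relative of Wnt5a, read 1.63, 4.53 and 6.49 CPM in the WT libraries against 5.11, 10 and 9.39 CPM in the knockouts. The WT libraries were 3.98-fold apart and overlapped the knockouts (log2 fold change 0.97, SE 0.45, adjusted p = 0.421, edgeR). Wnt9a was as uneven within the groups, at 3.35, 8.39 and 2.63 CPM in the WT libraries against 7.73, 6.71 and 1.37 CPM in the knockouts, and its fold change changed sign with the library left out.

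The remaining tested ligands were scarce, with WT means of 1.52 to 8.62 CPM. Wnt3a, Wnt7a, Wnt7b and Wnt11 had log2 fold changes of 0.15 to 0.70 and Wnt10b of −1.19 (SE 0.61), all with overlapping groups. The other 6 ligands were at or near the limit of detection. Wnt1, Wnt9b and Wnt16 had 1 count each in all 6 libraries together. Wnt2 had 1 to 10 counts per library, Wnt2b 0 to 7 and Wnt3 5 to 14, too few for the test.

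Of the 10 Frizzled receptors 9 were tested, with 8 log2 fold changes above 0 and 1 below (median 0.32, and 0.20 without Gpr115-KO replicate 2). Their summed level was 80.2, 88.4 and 79.0 CPM in the WT libraries against 106, 108 and 91.5 CPM in the knockouts, so that the sums did not overlap. Of all single genes 8.55% were higher without overlap, and no such share was computed for sums. The sums of the co-receptors and of the nuclear factors did not overlap either, and both were lower in Gpr115-KO. Those sums were mostly Lrp4 (915 of 941 CPM in WT replicate 1) and Tcf7l2 (1666 of 1729 CPM there). They therefore restate these genes, and the other co-receptors and nuclear factors overlapped between groups. Fzd6, a receptor known for planar polarity of hair and skin, was the most abundant per kilobase at 6.10 CPM per kb in WT. It read 30.2, 32.0 and 25.9 CPM in the WT libraries against 42.9, 37.8 and 27.0 CPM in the knockouts, with overlapping groups (log2 fold change 0.29, SE 0.19, adjusted p = 0.578, edgeR). Fzd7, a receptor for beta-catenin signalling, read 9.13, 12.1 and 9.63 CPM in the WT libraries against 12.3, 15.9 and 11.3 CPM in the knockouts. Its knockout replicates 1 and 2 were the highest libraries and replicate 3 fell inside the WT range (log2 fold change 0.35, SE 0.22). Fzd10 read 9.13, 7.25 and 6.69 CPM in the WT libraries against 8.07, 10.1 and 15.2 CPM in the knockouts, also with overlap (log2 fold change 0.54, SE 0.27).

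Fzd8 was the only Frizzled gene whose groups did not overlap. It was rare, with 22, 10 and 6 counts in WT and 30, 32 and 28 counts in Gpr115-KO, or 1.99, 1.13 and 0.608 CPM against 3.41, 3.41 and 2.55 CPM. The knockout mean was 251% of the WT mean (log2 fold change 1.30, SE 0.46, adjusted p = 0.299, edgeR). Fzd5 read 4.97, 6.69 and 10.2 CPM in the WT libraries against 12.0, 8.42 and 3.10 CPM in the knockouts, and both ends of the range were knockout libraries. Fzd1, Fzd2 and Fzd3 had log2 fold changes of 0.03 to 0.38 and Fzd4 of −1.02 (SE 0.48, adjusted p = 0.423, edgeR). Fzd9 had 2 to 15 counts per library and was not tested.

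All 3 co-receptors had log2 fold changes below 0 (median −0.36). With each library's trend on gene length removed, the 3 stayed below 0 and the median was −0.15. Lrp4 (chromosome 2, 91457511 to 91513779, plus strand), which binds the antagonist Sostdc1 and shapes tooth number when lost, was by far the most abundant of the 3. It read 915, 663 and 804 CPM in the WT libraries against 594, 397 and 572 CPM in the knockouts. The highest knockout library lay below the lowest WT library. The knockout mean of 521 CPM ± 108 was 65.6% of the WT mean of 794 CPM ± 126 (SD, n = 3), with a log2 fold change of −0.61 (SE 0.21, adjusted p = 0.297, edgeR). It lay between −0.72 and −0.45 in all 15 alternatives and passed the threshold in none of them (adjusted p 0.108 to 0.803).

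The canonical co-receptors were scarcer. Lrp6 read 24.4, 25.2 and 17.1 CPM in the WT libraries against 19.9, 18.8 and 13.5 CPM in the knockouts (log2 fold change −0.36, SE 0.22). Lrp5 read 1.27, 4.08 and 2.03 CPM in the WT libraries against 1.59, 1.39 and 3.28 CPM in the knockouts (log2 fold change −0.21, SE 0.52). Both overlapped between groups, and the sign of Lrp5 turned with 1 library left out. Per kilobase in WT, Lrp4 stood at 75.6, Lrp6 at 1.63 and Lrp5 at 0.252 CPM per kb.

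Of the 6 R-spondins and R-spondin receptors, 5 were tested, and 1 receptor varied widely within WT. Lgr4 read 1022, 936 and 1073 CPM in the WT libraries against 1133, 1076 and 729 CPM in the knockouts, with knockout replicate 3 lowest and the groups overlapping (log2 fold change −0.04, SE 0.21). Lgr6, a relative of Lgr4 known from hair follicle stem cells, read 28.3, 168 and 26.7 CPM in the WT libraries against 93.7, 161 and 136 CPM in the knockouts. WT replicate 2 was the highest of all 6 libraries and the other WT libraries were the lowest, a 6.29-fold spread within WT against 1.72-fold within Gpr115-KO. With all libraries the log2 fold change was 0.82 (SE 0.84, adjusted p = 0.750, edgeR). Without WT replicate 2 it was 2.25 (SE 0.27, adjusted p = 0.0181, edgeR), and over all 15 alternatives it ran from 0.42 to 2.25 with an adjusted p of 0.0181 to 0.965. Of all genes 0.102% passed without that library. The value for Lgr6 therefore rests on that library, and leaving it out was a choice among alternatives, not a correction.

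Rspo1, Rspo2 and Rspo3, the R-spondins of the set, were scarce. Rspo4, from outside the set, read 38.1, 34.8 and 36.1 CPM in the WT libraries against 35.3, 19.5 and 66.3 CPM in the knockouts. Its groups overlapped (log2 fold change 0.16, SE 0.37). Rspo2, a ligand of the Lgr receptors, read 8.23, 6.69 and 3.14 CPM in the WT libraries against 5.79, 7.99 and 13.7 CPM in the knockouts, with overlap (log2 fold change 0.61, SE 0.40). Rspo1 stood at 0.113 to 1.45 CPM among WT and 0.912 to 2.66 CPM among knockout libraries, also with overlap (log2 fold change 1.46, SE 0.72, adjusted p = 0.441, edgeR). Lgr5, the stem cell marker of the gut, was at 0.608 to 1.93 CPM among WT and 0.638 to 3.41 CPM among knockout libraries. Rspo3, another R-spondin, had 9, 5 and 5 counts in WT and 1, 2 and 5 counts in Gpr115-KO, or 0.814, 0.567 and 0.507 CPM against 0.114, 0.213 and 0.456 CPM. Its groups did not overlap, the knockout mean was 41.5% of the WT mean, and its counts were too few for the filter. Without the filter its log2 fold change was −1.20 (adjusted p = 0.712, edgeR).

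**Figure D4:**
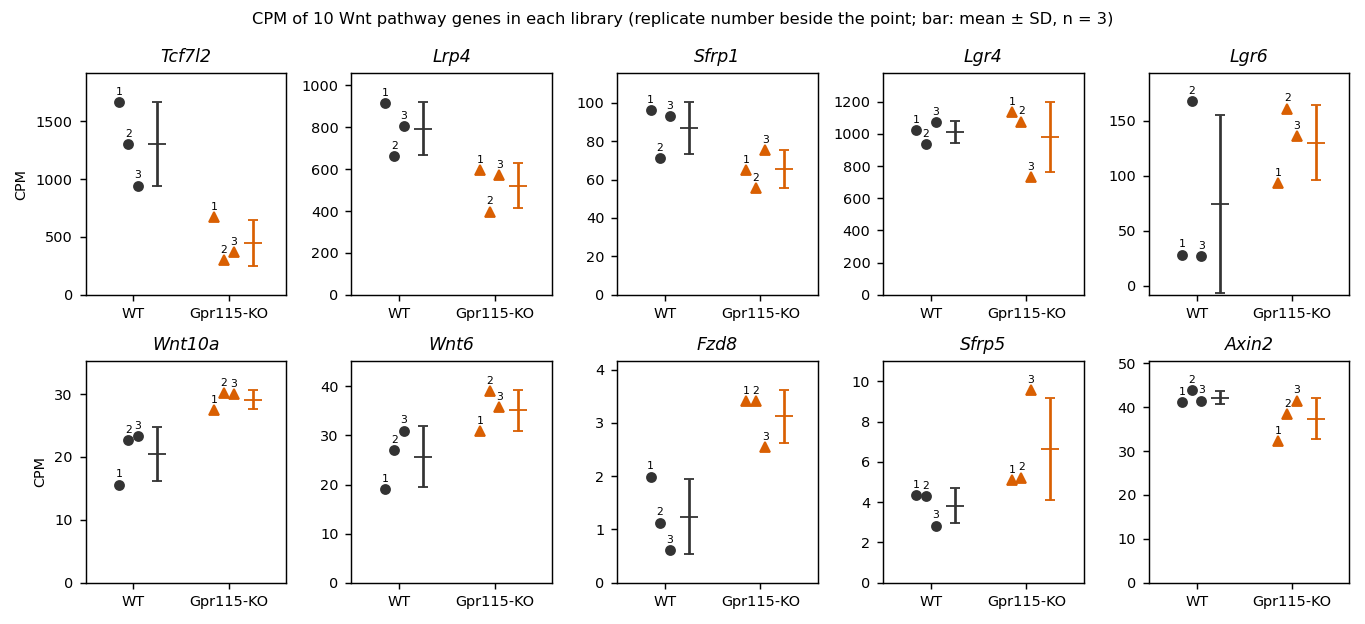
CPM of 10 Wnt pathway genes in each of the 3 WT and 3 Gpr115-KO libraries, 1 panel per gene with its own axis; bars mark the mean and SD of each group. Tcf7l2 and Lrp4 separate downward, Wnt10a, Fzd8 and Sfrp5 upward, and WT replicate 2 stands apart from the other WT libraries for Lgr6.

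The groups overlapped for all 3 genes of the destruction complex. Axin2, a scaffold of the complex and a widely used readout of beta-catenin signalling, read 41.2, 43.9 and 41.5 CPM in the WT libraries against 32.3, 38.5 and 41.5 CPM in the knockouts. The WT libraries lay close together, and knockout replicates 1 and 2 lay below them (log2 fold change −0.17, SE 0.15, adjusted p = 0.687, edgeR). Axin1, the scaffold made without induction, read 9.49, 15.3 and 15.7 CPM in the WT libraries against 9.20, 12.5 and 9.48 CPM in the knockouts, with overlap (log2 fold change −0.38, SE 0.25). Apc, which holds beta-catenin in the complex, read 34.5, 40.6 and 39.3 CPM in the WT libraries against 41.6, 48.8 and 30.8 CPM in the knockouts, and both the highest and the lowest library were knockouts (log2 fold change 0.08, SE 0.19). Axin1 lies on chromosome 17 (26138688 to 26195811), as Adgrf4 does. Of the 52 tested genes that start within 1 Mb of Axin1, 2 had an adjusted p under 0.05 by edgeR, against 0.15% of all genes: Luc7l, which fell by 3.76 on the log2 scale, and Atp6v0e, which rose by 1.29. Groups did not overlap for 5 lower and 7 higher of the 52, against 8.99% and 8.55% of all genes.

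Of the 10 antagonists, all were tested, with 6 log2 fold changes above 0 and 4 below (median 0.02). The split rests on single libraries: 3 were above 0 without WT replicate 3 (median −0.16) and 3 without Gpr115-KO replicate 3 (median −0.20). Wif1 read 334, 340 and 304 CPM in the WT libraries against 328, 213 and 448 CPM in the knockouts. The WT libraries were close together, and the knockouts spanned a wider range on both sides (log2 fold change 0.02, SE 0.24). Sostdc1, which inhibits both Wnt and BMP signals and limits tooth number, read 40.5, 64.1 and 52.2 CPM in the WT libraries against 56.5, 72.8 and 48.7 CPM in the knockouts, with overlap (log2 fold change 0.18, SE 0.21). Dkk1 and Dkk2, which block or modify Lrp co-receptors, had log2 fold changes of 0.28 (SE 0.25) and 0.04 (SE 0.29). Dkk3 stood at −0.30 (SE 0.19). Notum, an enzyme that strips the lipid from Wnt proteins, was at 0.03 (SE 0.30).

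The secreted Frizzled-related proteins, which bind Wnt ligands through a Frizzled-like domain, did not share a direction. Sfrp1 read 96.0, 71.1 and 93.0 CPM in the WT libraries against 64.9, 55.6 and 75.4 CPM in the knockouts. Only knockout replicate 3 reached into the WT range, above WT replicate 2 (log2 fold change −0.41, SE 0.18, adjusted p = 0.378, edgeR). Sfrp5 read 4.34, 4.31 and 2.84 CPM in the WT libraries against 5.11, 5.22 and 9.57 CPM in the knockouts. Its groups did not overlap, and knockout replicate 3 was well above the rest (log2 fold change 0.80, SE 0.33, adjusted p = 0.365, edgeR). Sfrp2 read 60.7, 71.3 and 41.6 CPM in the WT libraries against 42.3, 15 and 77.8 CPM in the knockouts, a 5.18-fold spread within the knockouts. Sfrp4 read 24.5, 29.9 and 9.73 CPM in the WT libraries against 16.7, 7.99 and 13.8 CPM in the knockouts, with WT replicate 3 among the knockouts. Sfrp2 stood at a log2 fold change of −0.36 (SE 0.57) and Sfrp4 at −0.74 (SE 0.41). In the dental mesenchyme list, the summed level was 182 to 211 CPM among WT and 193 to 295 CPM among knockout libraries, with Gpr115-KO replicate 3 highest as it was for Sfrp2, Sfrp5 and Wif1. Most of each sum was Msx1, at 211 CPM in Gpr115-KO replicate 3. Of the 5 genes of the list, 2 (Msx1 and Barx1) were highest in that library. Sfrp1 and Sfrp4 were highest in WT libraries instead. The part of the list in these values was not tested.

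Nkd1 and Nkd2, which bind Dishevelled inside the cell, were scarce. Nkd1 read 7.59, 5.44 and 5.67 CPM in the WT libraries against 10.1, 6.93 and 5.56 CPM in the knockouts (log2 fold change 0.26, SE 0.29). Nkd2 read 8.23, 7.48 and 6.18 CPM in the WT libraries against 6.14, 5.97 and 9.03 CPM in the knockouts (log2 fold change −0.05, SE 0.26). The groups overlapped for both. Widely used feedback targets of beta-catenin signalling, a list of 12 that shares Axin2, Nkd1, Notum, Lef1, Tcf7, Lgr5 and Dkk1 with the set, had 11 tested genes, 6 above 0 and 5 below, with a median log2 fold change of 0.01 and a range of −0.40 to 0.38. The median was −0.19 without Gpr115-KO replicate 3 and −0.04 to 0.08 with another library left out. The number with an adjusted p under 0.05 was 0 of 11 by edgeR, by DESeq2 and by limma-voom. Of all genes 0.15% passed by edgeR and 1.56% by DESeq2, so that 11 genes are too few to read this count. By edgeR 1, Znrf3, had an unadjusted p under 0.05, against 12.3% of all genes. With a library left out, 0 to 1 of the 11 were higher and 0 to 2 lower at that level.

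The rest of the pathway was read from a list of 74 further genes, of which 62 were tested. None had an adjusted p under 0.05 by edgeR or limma-voom, while DESeq2 gave 4 (Ctbp1, Kremen1, Dvl3 and Vangl1), where 1.56% of all genes passed. By edgeR 7 were higher and 8 lower at an unadjusted p under 0.05, where the shares of all genes were 4.85% and 7.48%. Without WT replicate 1 these counts were 3 and 6. The share of all genes, in either direction, fell as well, from 12.3% to 6.14%. Groups did not overlap for 7 higher and 10 lower genes, where the shares of all genes were 8.55% and 8.99%. The median log2 fold change was −0.03, and −0.06 to 0.02 with a library left out. The nearest to the threshold was Ctbp1, a co-repressor that Tcf factors can recruit, at 21.0 CPM ± 5.12 in WT against 45.8 CPM ± 7.45 in the knockout (SD, n = 3; log2 fold change 1.13, SE 0.21, adjusted p = 0.0954, edgeR). Kremen1, a receptor for Dkk proteins, stood at 18.9 CPM ± 2.14 in WT against 31.6 CPM ± 3.91 in the knockout (log2 fold change 0.74, SE 0.17). The other genes higher at an unadjusted p under 0.05 by edgeR were Csnk1g3 (0.79), Csnk1g2 (0.70) and Pygo2 (0.59), with Ctnnbip1 (0.63) and the rare Kremen2 (1.47, on chromosome 17).

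Dvl3, a Dishevelled protein that carries the signal from Frizzled, stood at 124 CPM ± 3.74 in WT against 82.2 CPM ± 8.30 in the knockout (log2 fold change −0.59, SE 0.15, adjusted p = 0.196, edgeR). Vangl1, a planar polarity protein, stood at 85.1 CPM ± 26.5 and 43.6 CPM ± 11.8 (log2 fold change −0.97, SE 0.26). Btrc, which tags beta-catenin for destruction, stood at 60.2 CPM ± 2.27 and 44.0 CPM ± 5.77 (log2 fold change −0.45, SE 0.15). Znrf3, a ligase that removes Frizzled from the membrane and is held back by R-spondin with Lgr4, stood at 451 CPM ± 63.5 and 342 CPM ± 32.7 (log2 fold change −0.40, SE 0.17). The casein kinases Csnk1d (−0.79) and Csnk1g1 (−0.47), with Prickle1 (−0.51) and Ctbp2 (−0.56), were the other genes lower at an unadjusted p under 0.05 by edgeR. Ctnnb1, which encodes beta-catenin, stood at 0.08 (SE 0.27).

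Gpr115-KO replicate 2 held the lowest value of 13 of the 47 (27.7%) and the highest of 12 (25.5%), against 24.9% and 26.3% of all genes tested. Gpr115-KO replicate 3 held the lowest value of 11 (23.4%) and the highest of 10 (21.3%), against 17.1% and 16.4% of all genes. WT replicate 1 held the lowest of 9 (19.1%) and the highest of 7 (14.9%), against 20.5% and 20.2% of all genes. For WT replicate 2 these were 3 (6.38%) and 9 (19.1%), against 12.8% and 13.0% of all genes. For WT replicate 3 they were 9 (19.1%) and 2 (4.26%), against 10.9% and 10.2%. For Gpr115-KO replicate 1 they were 2 (4.26%) and 7 (14.9%), against 13.9% and 13.9%. The sequencing kit did not mark strand, so reads of the stretches that Wnt5a, Wnt7b, Wnt11, Fzd5, Fzd6, Tcf7l1, Lef1, Axin2, Sfrp2, Rspo3 and Notum share with an overlapping annotated gene cannot be told apart.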

How the data were processed

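Total RNA of first molars was made into Nextera XT libraries, which do not mark strand, and sequenced as paired reads, per the labels' protocols. Reads were processed with STAR 2.5.2a, DESeq2, edgeR and limma on GRCm38 (mm10), per the submitters' processing notes, which give no roles. Neither the counting tool nor its annotation is named (not given in the sources used here). Raw counts deposited by the authors cover 48709 genes, plus 15 transgene rows (at most 8 counts in a library) that were left out. The authors also deposited a normalized signal for 20162 rows, CPM scaled by TMM per the file name and the values. Its columns sum to 937403 to 1085499. Whole reads were recovered from 100% of its values with 1 factor per column, to within 0.01 reads, and they match the deposited counts, so a count test on those reads repeats the one on the counts.

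Counts were tested with edgeR 4.0.16 (R 4.3.3). The 16011 genes passing filterByExpr (minimum count 10, minimum total 15) entered a robust quasi-likelihood fit with TMM scaling and genotype as the only term, a two-sided test and Benjamini-Hochberg adjustment over all of them, called at an adjusted p under 0.05. The biological coefficient of variation was 23.1%. Standard errors come from the log2 fold change and the F statistic (its size over the root of F). CPM carry no pseudocount. Exonic lengths, coordinates and overlaps are from GENCODE vM21 (GRCm38), and CPM per kb uses the union of a gene's exons. The test was tried on simulated data.

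The members, the other lists and the tests were chosen with earlier results of these data known. Values of each library are given for genes with an unadjusted p under 0.05, with groups that do not overlap, with a spread above 3-fold within a group at a mean of 5 CPM or more, and for up to 3 genes of the highest CPM per kb in each role. Lef1 was added to these after its values were seen. Of the marker lists, Schwann cell genes summed to 3.51 to 6.99 CPM, endothelial genes to 26.5 to 37.4 CPM, cartilage genes to 4.47 to 8.64 CPM (Matn1 at 0 in every library), keratinizing epithelial genes to 36.3 to 237 CPM and odontoblast genes to 3558 to 9994 CPM across the 6 libraries. Pairs of libraries differed by a chi-square per degree of freedom of 15.6 to 87.4 and were all counted as separate. The result of 1 marker list is not reported here.

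Alternatives were other library scalings, count filters and thresholds, the DESeq2 1.42.0 Wald test, limma-voom (limma 3.58.1), a fit without robust shrinkage, a block on the replicate number, removal of each library's trend on gene length, each library left out in turn, and the longest transcript as the length.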

Additional observations from a re-analysis of the deposited data

How the results depend on the processing

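Over all genes, 24 passed; the number was 500 without a count filter, 249 by DESeq2, 51 at a threshold of 0.1, 10 at 0.01, and 14 (without WT replicate 1) to 48 (without Gpr115-KO replicate 1) with a library left out. Of the Wnt genes 0 passed, and 7 had an unadjusted p under 0.05. The number passing was 1 without a count filter and 1 by DESeq2 (Tcf7l2), and 0 to 1 with a library left out (Lgr6 without WT replicate 2, Tcf7l2 without Gpr115-KO replicate 1). The cause of these differences was not tested.

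The replicate numbers did not pair the libraries: the correlations of same-numbered libraries were 0.27, 0.03 and −0.07. With the replicate number as a block, 72 genes passed, and 1 of them was a Wnt gene, Tcf7l2 at −1.60 (adjusted p = 0.0127, edgeR). The block turned Wif1 to −0.05 and changed no other call among the named Wnt genes.

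Of 464 log2 fold changes refitted for 31 Wnt genes, 427 kept direction and side of the threshold, 5 newly passed and 32 changed sign, in 11 genes that all lie near 0 or vary widely. By limma-voom Wnt9a read −0.06, Fzd5 −0.08 and Wif1 −0.05. With the trend on gene length removed, Lgr4 read 0.02, Tcf7 −0.05 and Wif1 −0.05. With library totals alone, which moved the median of all genes to 0.09, Lgr4 and Nkd2 both read 0.03. With a library left out, Wnt9a ran from −0.25 to 0.80, Fzd5 from −0.35 to 0.49, Lrp5 from −0.70 to 0.35, Lgr4 from −0.16 to 0.13, Apc from −0.08 to 0.25, Tcf7 from −0.19 to 0.13, Tcf7l1 from −0.14 to 0.26, Sfrp2 from −1.02 to 0.06, Wif1 from −0.27 to 0.25, Nkd1 from −0.004 to 0.44 and Nkd2 from −0.27 to 0.06. The cause was not tested. Fzd8 had no value where 10 counts were asked of every library. The 5 genes with too few counts for the filter (Wnt2, Wnt2b, Wnt3, Fzd9 and Rspo3) had adjusted p-values of 0.662 to 1 by edgeR without it.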
